A study of Mus musculus with 2 samples.

Results

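Expression of 10 genes encoding histone demethylases that act on H3K9 or H3K36, or that are grouped with those enzymes, was compared between WT and H3.3 G34R mouse embryonic stem (ES) cells. The genes were chosen by name, as the probes Kdm4a, Kdm4b, Kdm4c, Kdm4d, Kdm3a, Kdm3b, Kdm1a, Kdm2a, Kdm2b and Phf8, and each matched 1 of the 26127 probes. WT cells were unmodified (H3f3a+/+, H3f3b+/+). G34R cells carried a single targeted H3f3a allele (H3f3a+/G34R, H3f3b+/+), in which Cre had excised a WT minigene and a neo cassette so that a G34R minigene was transcribed from the endogenous H3f3a promoter. Both lines were of strain 129S1/SvImJ, had undergone fewer than 20 passages and were grown in 15% foetal calf serum with leukaemia inhibitory factor. Each line was sequenced once, which leaves every value without a replicate. No test between genotypes was possible, and genotype cannot be told apart from clone or culture. The study proposes that H3.3 G34R interferes with the KDM4 enzymes, and the question here was whether transcript levels of these and related demethylases differed between the libraries.

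Histone lysine demethylases remove methyl groups from histone tails by either of a pair of chemistries. Enzymes with a JmjC domain use iron, oxygen and 2-oxoglutarate, and can remove trimethylation. LSD1, the product of Kdm1a, uses FAD and is limited to mono- and dimethyl lysine. KDM4A, KDM4B and KDM4C act on trimethylated H3K9 and H3K36, marks associated with heterochromatin and with the bodies of transcribed genes, and in ES cells H3K9 demethylases are known for their part in keeping pluripotency genes open.

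The KDM4 genes are close paralogues, so their sequences are shown first, because 50-base reads have to tell them apart for the levels below to be read gene by gene. Over the first 1050 bases of the coding sequence, which hold the JmjN and JmjC domains, pairs of KDM4 genes were between 68.3% (Kdm4c and Kdm4d) and 73.8% (Kdm4a and Kdm4b) identical. The stretch of 60 coding bases that was most alike lies in the JmjC domain. It spans chr4:117840995-117841054 (minus strand, exon 5 of 22 in Kdm4a), chr17:56495415-56495474 (plus strand, exon 5 of 23 in Kdm4b), chr4:73944474-73944533 (plus strand, exon 5 of 22 in Kdm4c) and chr9:14268384-14268443 (minus strand, exon 2 of 2 in Kdm4d) in mm9. Capitals mark the 47 bases that are the same in all 4 genes, and each line runs 5′ to 3′ in the sense direction.
Kdm4a: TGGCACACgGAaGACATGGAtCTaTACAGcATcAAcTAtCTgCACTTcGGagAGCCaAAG
Kdm4b: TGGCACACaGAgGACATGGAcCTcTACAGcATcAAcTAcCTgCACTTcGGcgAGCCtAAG
Kdm4c: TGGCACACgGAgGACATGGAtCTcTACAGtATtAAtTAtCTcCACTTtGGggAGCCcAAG
Kdm4d: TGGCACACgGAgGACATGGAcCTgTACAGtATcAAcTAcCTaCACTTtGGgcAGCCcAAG
Even here the genes differed at 13 of 60 bases, 12 of them the third base of a codon. Across the whole coding sequences the longest run shared by any pair was 26 bases, and no stretch of 50 bases was shared. No 50-base stretch within an exon of Kdm4a, Kdm4b, Kdm4c, Kdm3a, Kdm1a, Kdm2a or Phf8 occurred a second time in mm9. Such repeats made up 0.522% of the stretches in Kdm3b, 12.6% in Kdm2b and 20.5% in Kdm4d, so the values of Kdm2b and Kdm4d could include reads from elsewhere.

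The values are read densities per kilobase of transcript, scaled to library size (RPKM), as deposited, and differences are log2 (G34R/WT RPKM). RPKM is corrected for length, so levels can be set against each other between genes, but only approximately. The length is that of merged isoforms, not of the isoform expressed. The normalisation totals, estimated from the RPKM steps of short single-exon genes, were 87.7 M reads for WT and 72.3 M for G34R, and 1 read on a 1 kb transcript was then worth 0.0114 and 0.0138 RPKM. Intervals given with values are 95% counting intervals from the estimated reads. They do not cover variation between cultures or libraries, or error in the transcript length used. Of 11 ES cell markers, all had at least 0.25 RPKM in both libraries, among them Pou5f1 (194.34 RPKM in WT and 189.46 in G34R), Tdgf1 and Dppa5a, while Nanog (127.07 and 52.24 RPKM) and Zfp42 (180.3 and 16.4 RPKM) were more than 2-fold lower in G34R cells, as were 9.64% of all genes. No ES cell marker was more than 2-fold higher, beside 5.79% of all genes. Past 1.5-fold, 2 of the 11 were higher and 2 lower in G34R cells, beside 13.3% and 18.2% of all genes. The 2 higher were Klf4 (25.14 and 43.71 RPKM) and Utf1 (61.89 and 108.56 RPKM), named after their values were seen. Of the 11, 4 lay above 0 and 7 below, beside 44.5% and 55.0% of all genes with at least 0.25 RPKM. Their median log2 ratio was -0.037, beside -0.067 for those genes. The 9 fibroblast markers summed to 1.95 RPKM in WT and 1 RPKM in G34R cells. Only Thy1 (1.18 and 0.71 RPKM) and Pdgfrb (0.47 and 0.06 RPKM, more than 2-fold lower) reached 0.25 RPKM, while Col1a1 had 0.2 and 0.19 RPKM, and Lum, Dcn, Postn and S100a4, named after their values were seen, were at 0 in both. The 6 primitive endoderm markers summed to 1.91 RPKM in WT and 4.07 in G34R cells. Of the 5 with at least 0.25 RPKM in 1 library, 3 were more than 2-fold higher in G34R cells, as were 5.79% of all genes. The 3 were Gata4 (0.5 and 1.18 RPKM), Gata6 (0.3 and 1.09 RPKM) and Sox17 (0.18 and 0.56 RPKM). Sox17 reached 0.25 RPKM in G34R cells only, and no marker of this list was above 1.18 RPKM, so the count rests on low values. The part of these marker differences in the results below was not tested. In bulk RNA, fewer cells of a type and less RNA per cell cannot be told apart. H3f3a itself had 8.17 RPKM in WT and 4.89 in G34R cells, but RPKM does not separate its alleles and so does not check the genotype.

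Of the 10 demethylase genes, 9 had at least 1 RPKM in both libraries and 1, Kdm4d, was close to 0 in both. None of the 9 differed by more than 2-fold. Among all 13366 genes with at least 0.25 RPKM in 1 library, 15.4% differed by more than 2-fold in either direction, and the share was 10.5% among the 10728 genes with at least 1 RPKM. Past 1.5-fold there was 1 demethylase gene, Kdm3a, which was lower in G34R cells. The same rule took in 18.2% of all genes with at least 0.25 RPKM as lower and 13.3% as higher, so with 9 genes neither count stands apart from the background. Of the 9 genes, 6 were lower and 3 higher in G34R cells, with log2 ratios from -0.97 to 0.47 and a median of -0.20. The median of all genes with at least 0.25 RPKM was -0.067, with quartiles of -0.42 and 0.27. Between 1523 and 20371 reads were estimated behind each value of the 9 genes, so counting error was small, and the counting interval excluded 0 for 8 of them. That says only that, on the deposited scale, the pair of libraries differed by more than read sampling.

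**Figure D1:**
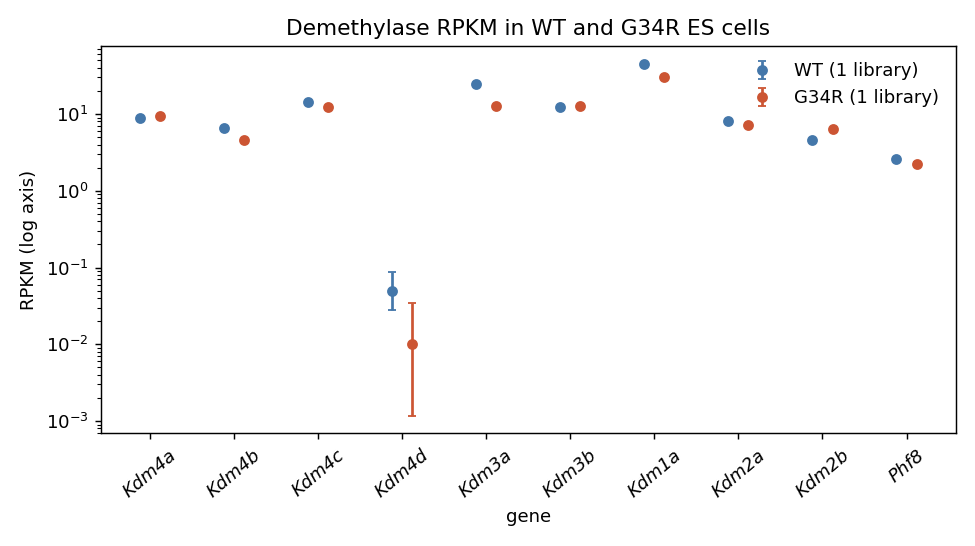
RPKM of the 10 demethylase genes (log axis) in the WT library (blue) and the G34R library (orange), with 95% counting intervals, many of which are smaller than the points. Kdm1a is highest in both libraries, at 44.85 and 30.4 RPKM, and Kdm4d is near 0 in both.

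**Figure D2:**
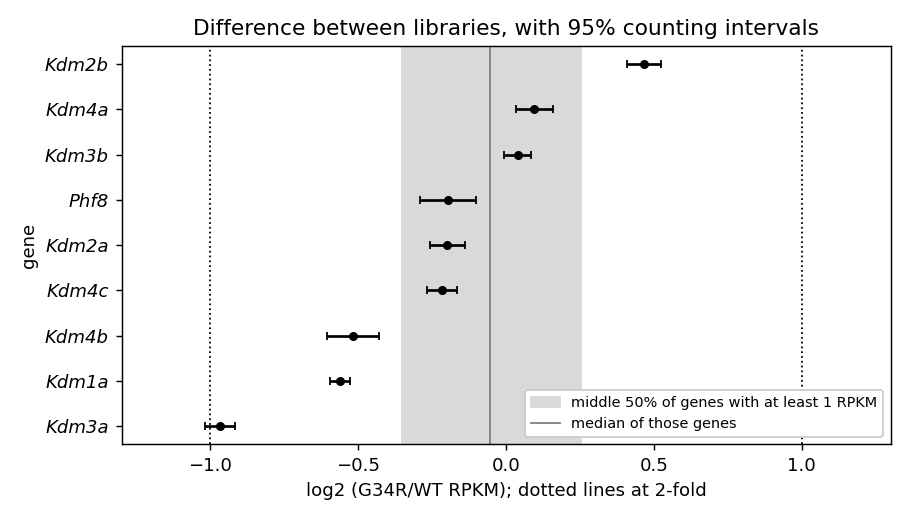
The log2 (G34R/WT RPKM) of the 9 genes above 0.25 RPKM with 95% counting intervals, over the middle 50% (grey band) and the median (line) of the 10728 genes with at least 1 RPKM. Points run from -0.97 for Kdm3a to 0.47 for Kdm2b, all within the dotted 2-fold lines, though the interval of Kdm3a reaches past the lower line.

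Among the KDM4 genes, the transcript of Kdm4c was the most abundant. Kdm4c had 14.37 RPKM in WT and 12.37 RPKM in G34R cells, with a log2 ratio of -0.22 (counting interval -0.27 to -0.16), and 62.9% of genes with at least 1 RPKM differed at least as far in either direction. Kdm4a had 8.92 RPKM in WT and 9.53 RPKM in G34R cells. Its log2 ratio was 0.095 (0.034 to 0.16). A difference of that size or larger was seen in 83.1% of genes. Of the 3 KDM4 genes above 0.25 RPKM, Kdm4b differed most. Kdm4b had 6.54 RPKM in WT and 4.57 RPKM in G34R cells, which is 30.1% lower and a log2 ratio of -0.52 (-0.61 to -0.43). A difference at least as large occurred in 29.9% of genes with at least 1 RPKM and in 24.3% of those with at least 5 RPKM.

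The fourth gene, Kdm4d, encodes a shorter enzyme that acts on H3K9 and lacks the PHD and Tudor domains of the other KDM4 proteins. Its RPKM was 0.05 in WT and 0.01 in G34R cells, from an estimated 13 and 2 reads. The counting intervals of these levels, 0.028 to 0.089 and 0.0012 to 0.035 RPKM, overlapped, whereas that of the log2 ratio of -2.32 ran from -5.61 to -0.28 and excluded 0. These read numbers were worked back from RPKM rounded to 2 decimals, and the intervals do not cover that rounding. At so low a level the exclusion of 0 is therefore not firm. Reads from elsewhere could be among so few, and Kdm4d fell below the RPKM filter, so it is not in the counts of genes past a fold threshold given above.

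Together the KDM4 genes summed to 29.88 RPKM in WT and 26.48 RPKM in G34R cells, 11.4% lower (log2 ratio -0.17). Kdm4c made up 48.1% of the sum in WT and 46.7% in G34R cells. The share of Kdm4a was 29.9% in WT and 36% in G34R cells, and that of Kdm4b was 21.9% and 17.3%. Hence the order Kdm4c, Kdm4a, Kdm4b, Kdm4d was the same in both libraries. No KDM4 gene above 0.25 RPKM was more than 1.5-fold higher in G34R cells, beside 13.3% of all genes. With only 3 genes this count does not stand apart from the background.

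**Figure D3:**
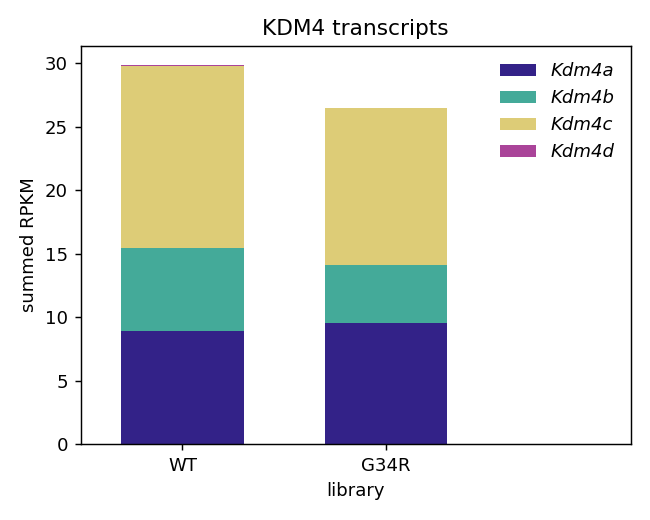
Stacked RPKM of Kdm4a, Kdm4b, Kdm4c and Kdm4d in the WT and G34R libraries (1 library each, so without error bars). The bars reach 29.88 and 26.48 RPKM, and Kdm4d is too low to be seen in G34R cells.

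The KDM3 enzymes remove mono- and dimethylation from H3K9, and KDM3A is known to be induced by hypoxia. Kdm3a had 24.76 RPKM in WT and 12.66 RPKM in G34R cells. This was the largest difference of the 9 genes, 48.9% lower in G34R cells with a log2 ratio of -0.97 (-1.02 to -0.92), and lay just short of 2-fold. At least as large a difference was seen in 11.2% of genes with at least 1 RPKM and in 7.62% of those with at least 5 RPKM, and 6.75% of the former had a lower log2 ratio. Its paralogue Kdm3b had 12.48 RPKM in WT and 12.82 RPKM in G34R cells. Its log2 ratio was 0.039 (-0.0068 to 0.084), the only one of the 9 whose counting interval included 0 on the deposited scale. Counting intervals do not cover the choice of scaling, and other scalings moved this ratio to as much as 0.12. The level of Kdm3a was 1.98 times that of Kdm3b in WT cells and 0.988 times in G34R cells. In the G34R library Kdm3b, Kdm3a and Kdm4c, at 12.82, 12.66 and 12.37 RPKM, were adjacent in level with overlapping counting intervals between neighbours, whereas in the WT library no neighbouring levels overlapped.

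LSD1, encoded by Kdm1a, removes methyl groups from H3K4 in the CoREST complex and has been linked to H3K9 in other settings. Kdm1a had 44.85 RPKM in WT and 30.4 RPKM in G34R cells, and was the most abundant of the 10 transcripts in both. Its log2 ratio was -0.56 (-0.59 to -0.53), 32.2% lower in G34R cells, and 26.8% of genes with at least 1 RPKM differed as far. Rcor2, a CoREST scaffold abundant in ES cells, had 36.82 RPKM in WT and 17.08 RPKM in G34R cells (log2 ratio -1.11). It was the only one of 11 CoREST partners past 2-fold, beside 15.4% of all genes with at least 0.25 RPKM. The deacetylase Hdac1 had 13.56 RPKM in WT and 24.58 RPKM in G34R cells (0.86), and its paralogue Hdac2 had 16.49 and 15.66 RPKM (-0.075). The list did not lie to one side, with 5 partners above 0, 6 below and a median log2 ratio of -0.022.

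The KDM2 enzymes act on mono- and dimethylated H3K36 and bind unmethylated CpG islands through a CXXC domain. Kdm2a had 8.18 RPKM in WT and 7.13 RPKM in G34R cells. Its log2 ratio was -0.20 (-0.26 to -0.14), and 65.7% of genes with at least 1 RPKM differed as far. Kdm2b, which also recruits the variant Polycomb complex PRC1.1, had 4.58 RPKM in WT and 6.33 RPKM in G34R cells. Its log2 ratio of 0.47 (0.41 to 0.52), 38.2% higher in G34R cells, was the highest of the 9, and 33.6% of genes differed as far. The merged Kdm2b model pools long and short isoforms, which share the CXXC domain but not the JmjC domain, so its RPKM does not say which was higher. The 10 genes listed as PRC1.1 partners, whose membership of the complex was not checked here, had 5 above 0 and 5 below (median log2 ratio -0.10). More than 2-fold lower in G34R cells was 1 of them, Cbx8 (0.25 and 0.1 RPKM), beside 9.64% of all genes. Cbx8 reached the filter of 0.25 RPKM in WT only, and none of the 9 genes that reached it in both libraries was past 2-fold. More than 1.5-fold lower were 2, Cbx8 and Bcorl1 (1.43 and 0.8 RPKM), beside 18.2% of all genes, and both were named after their values were seen. None was more than 1.5-fold higher, beside 13.3% of all genes. The most abundant were Skp1a (58.24 RPKM in WT, 49.79 in G34R), the deubiquitinase Usp7 (38.19 and 32.81 RPKM), the ubiquitin ligase Rnf2 (22.26 and 24.83 RPKM) and Rybp (11.05 and 12.93 RPKM), none of them past 1.5-fold.

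Phf8 encodes an X-linked demethylase of H3K9 and H4K20 that binds promoters marked by H3K4 trimethylation. Phf8 had 2.59 RPKM in WT and 2.26 RPKM in G34R cells, the lowest level of the 9. Its log2 ratio was -0.20 (-0.29 to -0.10), beside a median of -0.21 for the 362 other X-linked genes with at least 1 RPKM. The 17 of those genes within 1 Mb of Phf8 had a median of -0.011, and 6 of them were as low or lower.

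Each gene was also set beside its neighbours on the chromosome. Kdm3a (chr6:71538968-71582899, minus strand, mm9) had 24 neighbours with at least 1 RPKM within 1 Mb, with a median log2 ratio of -0.31, and 2 of them were as low or lower. Kdm1a (chr4:136106455-136158638, minus strand) had 21, with a median of -0.13 and 4 as low or lower. For Kdm4b (chr17:56465485-56542293, plus strand) the median of 40 neighbours was -0.10, and 8 were as low or lower. Kdm2b (chr5:123320677-123465089, minus strand) had 30 neighbours with a median of -0.026, of which 5 were as high or higher. These 4 demethylase genes are those above 0.25 RPKM that lay outside the quartiles of all genes. A place toward the edge of their neighbourhoods follows largely from that choice and is no separate result. None of the 4 was the outermost. Kdm4d, below the RPKM filter, was lower than all 13 of its neighbours. Its ratio rests on an estimated 13 and 2 reads, whereas the neighbours had at least 1 RPKM. Its place among them is therefore not comparable with that of the 4. Kdm4a (chr4:117809562-117852648, minus strand) lay near its 21 neighbours, whose median was 0.087. Kdm4c (chr4:73888401-74051764, plus strand) had only 1 expressed neighbour, at -0.24. None of the 10 genes lies on chromosome 8 or Y. Genes on distal chromosome 8 and on the Y were known from earlier results of these data to differ between the libraries.

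**Figure D4:**
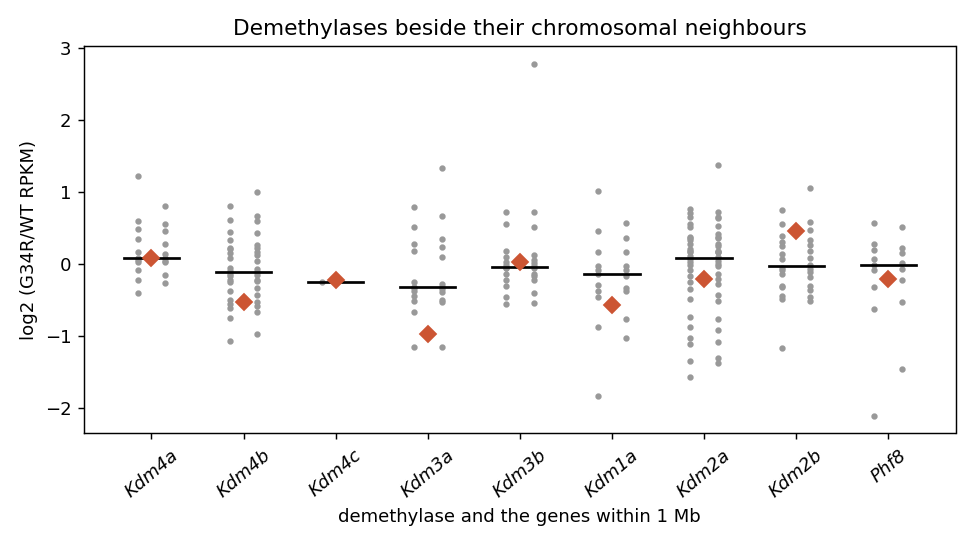
The log2 (G34R/WT RPKM) of each of the 9 demethylase genes (orange diamonds) beside the genes with at least 1 RPKM within 1 Mb (grey points, with their median as a black line). Kdm3a, at -0.97, lies below 22 of 24 neighbours, and Kdm4a, at 0.095, lies close to the median of its own.

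Promoter sequences of 7 of the 10 genes were taken from RefSeq (GRCm38.p6, 250 bases before to 50 after the transcript start). The files use mm9, and no coordinates were converted. Promoters of Kdm4b, Kdm3b and Kdm2a were not analysed here. The first entries for Kdm3a (chr6:71632868-71633167), Kdm1a (chr4:136602674-136602973) and Kdm2b (chr5:122988458-122988757), all on the minus strand, are shown because, of the genes with a promoter entry and above 0.25 RPKM, Kdm3a and Kdm1a had the lowest log2 ratios and Kdm2b the highest. They run 5′ to 3′ in the direction of transcription, and capitals mark CCAAT boxes (CCAAT), GC boxes (GGGCGG) and hypoxia response cores (ACGTG), searched on both strands.
Kdm3a: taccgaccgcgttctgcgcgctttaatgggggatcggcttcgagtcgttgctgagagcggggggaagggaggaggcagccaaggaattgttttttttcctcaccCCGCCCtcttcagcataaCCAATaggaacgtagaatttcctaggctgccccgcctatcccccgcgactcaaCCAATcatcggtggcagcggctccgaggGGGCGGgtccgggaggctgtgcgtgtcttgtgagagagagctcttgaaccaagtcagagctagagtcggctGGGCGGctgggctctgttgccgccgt
Kdm1a: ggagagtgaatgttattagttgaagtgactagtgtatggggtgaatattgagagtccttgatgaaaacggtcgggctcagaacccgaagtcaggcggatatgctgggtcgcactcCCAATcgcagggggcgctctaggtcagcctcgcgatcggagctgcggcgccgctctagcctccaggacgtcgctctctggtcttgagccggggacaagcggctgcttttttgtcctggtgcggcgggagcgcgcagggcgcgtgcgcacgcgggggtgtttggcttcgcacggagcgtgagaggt
Kdm2b: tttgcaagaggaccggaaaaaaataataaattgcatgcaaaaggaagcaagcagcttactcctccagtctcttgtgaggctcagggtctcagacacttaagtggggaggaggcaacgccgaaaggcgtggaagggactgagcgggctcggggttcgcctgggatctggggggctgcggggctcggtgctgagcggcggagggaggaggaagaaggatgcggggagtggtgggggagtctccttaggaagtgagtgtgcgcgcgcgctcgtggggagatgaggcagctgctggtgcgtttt
The Kdm3a window held 2 CCAAT boxes and 3 GC boxes, the Kdm1a window 1 CCAAT box, and the Kdm2b window none of the motifs. Other entries of the same genes differed from these. Another Kdm3a entry held 4 GC boxes and 40 CG dinucleotides, and the remaining one held no motif and no CG dinucleotide. Of the other Kdm2b entries, a pair that overlap each other each held 6 GC boxes and 1 CCAAT box, with 47 and 49 CG dinucleotides, and the remaining entry held 1 GC box and 28 CG dinucleotides. Which start site was used was not measured. Of all 32851 promoter entries, 37.4% held a CCAAT box, 35.7% a GC box and 19.6% a hypoxia response core, so these matches are common. The windows shown contained 24 (Kdm3a), 29 (Kdm1a) and 18 (Kdm2b) CG dinucleotides, against a median of 7 over all entries. A match in these windows describes the letters only, and binding was not measured.

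The remaining histone demethylases were examined in the same way. Of 16 such genes, all had at least 0.25 RPKM in 1 library, 3 were more than 2-fold lower in G34R cells (background 9.64%) and none more than 2-fold higher (background 5.79%). The 3 were Uty, Kdm5d and Hr, and each reached 0.25 RPKM in WT only. None of the 13 genes with at least 0.25 RPKM in both libraries was past 2-fold. Uty and Kdm5d are Y-linked, and Uty had 2.85 RPKM in WT and 0.19 RPKM in G34R cells. Kdm5d (0.52 and 0.2 RPKM) and Hr (0.76 and 0.23 RPKM) were below 1 RPKM, and were named after their values were seen. The 5 genes on chromosome Y with at least 1 RPKM had a median log2 ratio of -3.91. Uty is among them and is itself the median gene. The part of this in the values of Uty and Kdm5d was not tested. Their X-linked counterparts differed less, with 19.28 RPKM in WT and 19.13 RPKM in G34R cells for Kdm5c and 5.21 and 4.45 RPKM for Kdm6a (also named after the values were seen). The most abundant demethylase transcript of all was Kdm5b, which encodes an H3K4 demethylase. It had 71.14 RPKM in WT and 38.32 RPKM in G34R cells. Its log2 ratio was -0.89, which 13.2% of genes with at least 1 RPKM equalled or exceeded in size. Jmjd1c, the third KDM3 gene, had 9.52 RPKM in WT and 11.65 RPKM in G34R cells (0.29). The median log2 ratio of the list was -0.17.

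Methyltransferases of H3K9 and H3K36, whether or not they trimethylate these lysines, were also expressed in both libraries. Of 6 H3K9 methyltransferase genes, 1 was more than 2-fold higher in G34R cells, namely Suv39h1 with 1.57 RPKM in WT and 3.36 RPKM in G34R cells (2.14-fold higher), beside 5.79% of all genes. Setdb1 (15.06 and 15.25 RPKM) and Ehmt2 (20.91 and 30.85 RPKM) were the more abundant members, and the median of the list was 0.054. Of 7 H3K36 methyltransferase genes none was past 1.5-fold, beside 13.3% of all genes higher and 18.2% lower. Setd2, which trimethylates H3K36, had 11.01 RPKM in WT and 9.9 RPKM in G34R cells (-0.15).

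**Figure D5:**
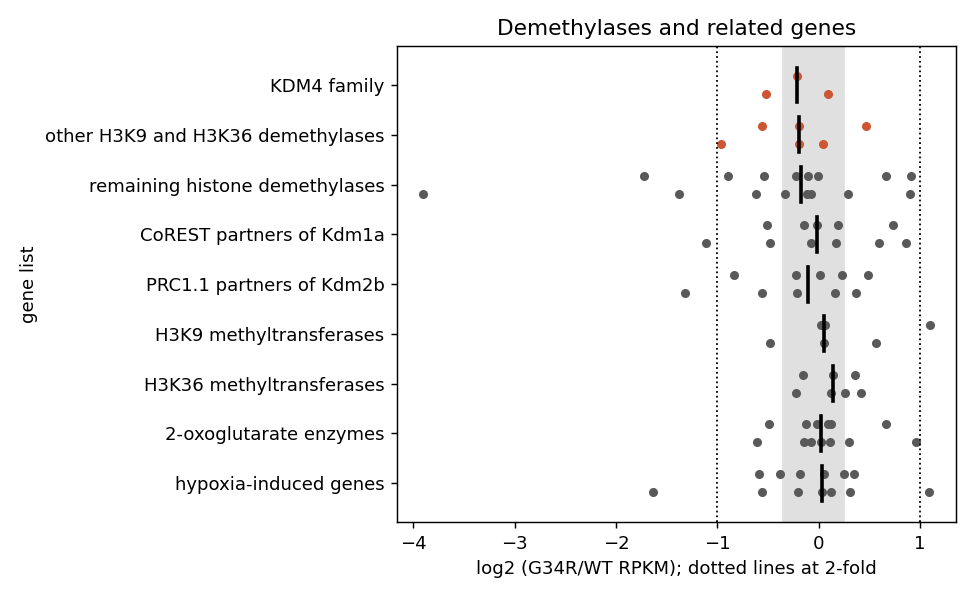
The log2 (G34R/WT RPKM) of each gene with at least 0.25 RPKM in 1 library in the KDM4 family and the 6 other demethylases studied here (orange) and in 7 lists of related genes (grey, the cell type marker lists not plotted), with list medians as black bars and the middle 50% of genes with at least 1 RPKM as the grey band. The medians of the lists plotted lie between -0.22 and 0.14, within the band, and the lowest point is Uty.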

How the data were processed

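RNA from each line was made into stranded total RNA libraries (500 ng, 12 cycles) and read as 50 bp single ends. The authors aligned reads to mm9 with STAR 2.4.2a and default settings, counted primary alignments in Seqmonk on merged mRNA isoforms by strand, and deposited RPKM per gene, rounded to 2 decimals. RPKM is relative to each library's total, so a few very high genes shift all values.

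The log2 ratio of G34R to WT was taken after raising RPKM below 0.01 to that value. Counts past 2-fold or 1.5-fold used genes with at least 0.25 RPKM in 1 library. Reads per gene were estimated from RPKM, merged exon length (GENCODE M1, mm9; 26055 of 26127 probes matched) and a depth found as the total at which RPKM of single-exon genes shorter than 600 bp (67 in WT and 54 in G34R cells) became whole reads. Counting intervals are exact binomial (Clopper-Pearson) for ratios and exact Poisson for levels, at 95%, and cover counting error only. The depth and fold steps were tested on simulated data. KDM4 coding sequences were aligned with MAFFT.

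The members and gene lists were chosen with earlier results of these data known, and the lists are therefore not independent evidence. Named genes were all 10 members and, from each list, those past 2-fold with at least 1 RPKM and up to 4 of the highest mean RPKM. Not every gene that rule allows is described, and genes named outside it are marked. With 2 libraries no genes of like pattern could be sought. Alternatives were other added constants, filters, fold thresholds and scalings. Calculations were run in SciPy 1.17.1 and NumPy 2.4.6 under Python 3.11.15, with tables in pandas 2.3.3 and plots in matplotlib 3.10.9.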

Additional observations from a re-analysis of the deposited data

How the results depend on the processing

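With 1 library per cell line, no replicate could be left out and no test was made. No paired analysis was possible because each group held 1 library. All 9 demethylase genes above 0.25 RPKM kept the direction of their log2 ratio under the added constants of 0.01, 0.1 and 1 RPKM. That was fixed in advance, because the same constant added to both values cannot change the direction. The 9 genes also kept it under the 4 scalings (equal RPKM sum, equal upper quartile, a trimmed mean of log ratios, and centring on the median gene). Of their 63 alternative values, 48 moved by no more than the counting error and 15 by more, with Kdm3a between -0.97 and -0.89 and Kdm2b between 0.39 and 0.55. The scalings added between 0.021 and 0.082 to every log2 ratio. Shifts of that size could not reverse any of the 9, whose negative ratio nearest to 0 was -0.20 (Phf8). The kept direction is therefore no separate support. With the trimmed mean, the summed KDM4 ratio was -0.092 and the median of the demethylases -0.12. Centring without chromosomes 8, X and Y gave a median of -0.13. The number of demethylases past the threshold and lower was 0 under these scalings, but 1 with a threshold of 1.5-fold (Kdm3a) and 1 without a filter on low RPKM (Kdm4d, from the estimated 13 and 2 reads). Depth limited only Kdm4d. For the others the lack of replicate libraries, not depth, set the precision.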

Other observations

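JmjC demethylases depend on 2-oxoglutarate, and enzymes that make or use it were examined as a list. Of 13 such genes, none was past 2-fold (15.4% of all genes with at least 0.25 RPKM were), 7 were above 0 and 6 below, and the median log2 (G34R/WT RPKM) was 0.017. Psat1 had 51.51 RPKM in WT and 46.42 RPKM in G34R cells, Glud1 46.69 and 49.78 RPKM, and Got1 40.58 and 39.99 RPKM. Got2, on chromosome 8, had 31.23 and 49.37 RPKM. Idh1 and Idh2, the isocitrate dehydrogenases mutated in some gliomas, had 25.49 and 18.19 RPKM and 31.37 and 28.69 RPKM, and were named after their values were seen.

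Genes known to be induced by hypoxia, as Kdm3a is, were mixed. Of 14, 13 had at least 0.25 RPKM in 1 library, with 7 above 0, 6 below and a median of 0.030. More than 2-fold lower was 1 and more than 2-fold higher 1, beside 9.64% and 5.79% of all genes. Bnip3, a mitophagy receptor, had 21.15 RPKM in WT and 6.81 RPKM in G34R cells (log2 ratio -1.63). Egln3, an oxygen sensor that is itself a 2-oxoglutarate-dependent enzyme, had 5.73 and 12.14 RPKM (1.08). The most abundant of the list were Ldha (225.31 and 153.18 RPKM), Slc2a1 (102.22 and 104.36 RPKM) and Pgk1 (92.6 and 71.1 RPKM), none of them past 1.5-fold.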
